A study of Arabidopsis thaliana with 9 samples.

Results

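The UMAMIT genes (Usually Multiple Acids Move In and out Transporters) of Arabidopsis thaliana were followed in roots under low potassium and under cesium. Members were the genes whose deposited description contains MtN21, the name of the nodulin that founded the family, together with AT4G28040 and AT3G28050, which carry that description too. The rule found 49 of 37547 genes. Of these, 44 are named UMAMIT in RefSeq and 5 are not, namely AT1G06890, AT1G48230, AT1G53660, AT2G05755 and AT3G02690. AT1G06890 encodes a UDP-xylose transporter of the Golgi, so the description alone does not mark an amino acid carrier. Conversely, WAT1 (UMAMIT5), UMAMIT38 and UMAMIT39-psi fell outside the rule because their descriptions lack the word.

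Wild-type Col-0 plants grew on agarose medium with sucrose, and total RNA of roots was sequenced from strand-specific libraries. The control group had 0.5 mM KCl, the low potassium group had 0.025 mM KCl, and the cesium group had 0.5 mM KCl plus CsCl, whose amount the labels write as 0.3 mL without a stock concentration. Each of the 3 groups had 3 libraries. The labels call them biological replicates but do not tell if each was an independent culture. The p-values therefore measure only how far these libraries spread, and that spread may be technical. Plant age and the length of exposure are not given in the sources used here.

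UMAMITs are membrane proteins that carry amino acids across the plasma membrane or the tonoplast, in several cases as exporters that let amino acids leave cells along their gradient. Well-studied members unload amino acids from the phloem of roots and from the seed coat toward the embryo, and a few carry glucosinolates or, in the case of WAT1, auxin instead. Potassium is the main cation that balances charge during nitrate and amino acid transport, and cesium is taken up through some of the same channels and carriers as potassium.

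Levels are in FPKM as the authors deposited them. By definition FPKM divides a gene's fragments by the length of its transcript and by the library's mapped fragments. Levels are therefore per length and comparable between genes, while the scaling used across these libraries is not stated in the sources used here. Changes are differences of group means on the log2(FPKM + 1) scale with their standard error, and a gene is said to have risen or fallen where limma gave a Benjamini-Hochberg adjusted p under 0.05 over all 19536 genes tested. The added 1 makes changes of genes near or under 1 FPKM look smaller than they were. Read totals are not given in the sources used here, and steps among low values placed the other libraries at 97.3% to 101.6% of the depth of the first control library. The steps held in at most 18.4% of the genes compared, so depth is known only roughly. In bulk RNA of a root, fewer cells of a type and less RNA per cell cannot be told apart.

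The stretch of 250 bases before the annotated start of transcription is shown for the 4 UMAMIT genes with the smallest adjusted p in a comparison with control, 2 of which rose and 2 of which fell in low potassium. Sequences are from RefSeq TAIR10.1 and are written 5′ to 3′ on the strand of the gene, and capitals mark matches to 4 short motifs searched on both strands. One motif was CACGTG, known as the G-box. Another was ACGTG, the core of the abscisic acid-responsive element, which also lies within the G-box. The next was TTGAC, the W-box core, which reads in reverse complement where it lies on the other strand. The last was GNATATNC, the phosphate starvation element P1BS. The UMAMIT33 promoter lies at chr4:13940057-13940306 on the plus strand, that of UMAMIT41 at chr3:10442358-10442607 on the plus strand, that of UMAMIT22 at chr1:16446919-16447168 on the minus strand, and that of UMAMIT26 at chr1:3856692-3856941 on the plus strand.
UMAMIT33: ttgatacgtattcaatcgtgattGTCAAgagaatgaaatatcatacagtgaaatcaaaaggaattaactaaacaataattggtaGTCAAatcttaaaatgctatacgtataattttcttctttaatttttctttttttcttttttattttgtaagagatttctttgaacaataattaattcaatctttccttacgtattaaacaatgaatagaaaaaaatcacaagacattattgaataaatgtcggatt
UMAMIT41: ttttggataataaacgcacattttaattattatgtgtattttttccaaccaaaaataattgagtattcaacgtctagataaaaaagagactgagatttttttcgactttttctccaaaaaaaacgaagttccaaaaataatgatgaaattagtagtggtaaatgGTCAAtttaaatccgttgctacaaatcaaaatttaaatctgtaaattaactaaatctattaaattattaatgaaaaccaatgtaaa
UMAMIT22: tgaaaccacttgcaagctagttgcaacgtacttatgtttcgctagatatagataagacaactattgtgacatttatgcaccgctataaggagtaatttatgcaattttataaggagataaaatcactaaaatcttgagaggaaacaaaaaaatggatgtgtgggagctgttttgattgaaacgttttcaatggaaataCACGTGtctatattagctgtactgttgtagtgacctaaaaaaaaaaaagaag
UMAMIT26: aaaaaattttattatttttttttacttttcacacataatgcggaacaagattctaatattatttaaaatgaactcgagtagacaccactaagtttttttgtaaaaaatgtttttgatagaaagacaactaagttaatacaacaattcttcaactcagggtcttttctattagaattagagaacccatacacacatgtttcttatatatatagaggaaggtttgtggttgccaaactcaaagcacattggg

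Both genes that rose in low potassium held TTGAC, with 2 matches in UMAMIT33 and 1 in UMAMIT41. UMAMIT22 held 1 CACGTG, and UMAMIT26 held no match to any of the 4 motifs. The shares among members were near those among all promoters. TTGAC was present in 49.0% of the 49 members and in 44.9% of 27443 promoters of the same length, ACGTG in 18.4% and 22.9%, CACGTG in 6.12% and 6.49%, and GNATATNC in 6.12% and 5.46%. The matches describe the letters of these windows and no more.

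Most of the family was expressed in these roots. Averaged over the 9 libraries, 39 members reached 1 FPKM, 34 of them named UMAMIT, and these 39 were tested. Of the tested members, 19 had a mean of at least 10 FPKM and 20 a mean between 1 and 10 FPKM. The 10 members under the filter were UMAMIT7, UMAMIT15, UMAMIT16-psi, UMAMIT23, UMAMIT24, UMAMIT25, UMAMIT32, UMAMIT43-psi, UMAMIT46 and UMAMIT47. Among them UMAMIT16-psi, UMAMIT23 and UMAMIT24 were listed at 0 in every library, and UMAMIT24 is known from developing seeds. The highest value of any untested member was 2.11 FPKM, for UMAMIT25, also known from seeds, in the first cesium library. UMAMIT25 had 0.24, 0.45 and 0.55 FPKM in control and 1.29, 1.12 and 0.891 FPKM in low potassium. In cesium it had 2.11, 1.32 and 0.398 FPKM, which overlapped control. The authors' deposited table has UMAMIT25 higher than control in both treatments, with a q of 0.00503 in low potassium and 0.000921 in cesium. That table also has UMAMIT32 higher in low potassium, with a q of 0.026.

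UMAMIT18 (SIAR1), which moves amino acids in both directions across the plasma membrane of vascular cells, had the highest level of the 49 members, though WAT1, outside the rule, was higher. UMAMIT18 stood at 216.5, 241.1 and 250.2 FPKM in control, at 213.7, 227.8 and 143.7 FPKM in low potassium, and at 194.9, 248.1 and 125.3 FPKM in cesium. The third library of each treatment was the lowest of its group, and the groups overlapped. No change of UMAMIT18 passed, with log2 changes of -0.30 ± 0.24 in low potassium and -0.37 ± 0.24 in cesium against control. UMAMIT18 made up 28.8% of the summed FPKM of the 44 members named UMAMIT in control, 23.1% in low potassium and 27.3% in cesium. With WAT1 and the other UMAMIT genes outside the rule in the sum, these shares were 20.1%, 16.9% and 17.2%. The sum over the 44 members lay between 784.3 and 859.1 FPKM in control, between 740.0 and 905.2 FPKM in low potassium and between 603.4 and 780.8 FPKM in cesium, so the cesium libraries were below the control libraries in this sum. With the UMAMIT genes outside the rule added, the sum lay between 1139 and 1235 FPKM in control, between 995.9 and 1238 FPKM in low potassium and between 898.2 and 1222 FPKM in cesium, and the 3 groups overlapped.

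The next highest members were AT1G06890, UMAMIT11 and UMAMIT41. AT1G06890 had 71.7, 71.6 and 77.9 FPKM in control, 73.1, 69.7 and 72.9 FPKM in low potassium, and 67.4, 64.6 and 78.2 FPKM in cesium. Its 3 groups overlapped and no change passed. UMAMIT11, an amino acid exporter studied in seeds, had 54.3, 54.2 and 67.5 FPKM in control, 75.4, 81.2 and 70.7 FPKM in low potassium, and 49.3, 56.4 and 57.6 FPKM in cesium. Its low potassium libraries were above those of both other groups, and UMAMIT11 rose by a log2 change of 0.37 ± 0.11 in low potassium (limma, adjusted p = 0.0226), a call that was lost without the first or second control library or the first or second low potassium library (adjusted p up to 0.0844).

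**Figure D1:**
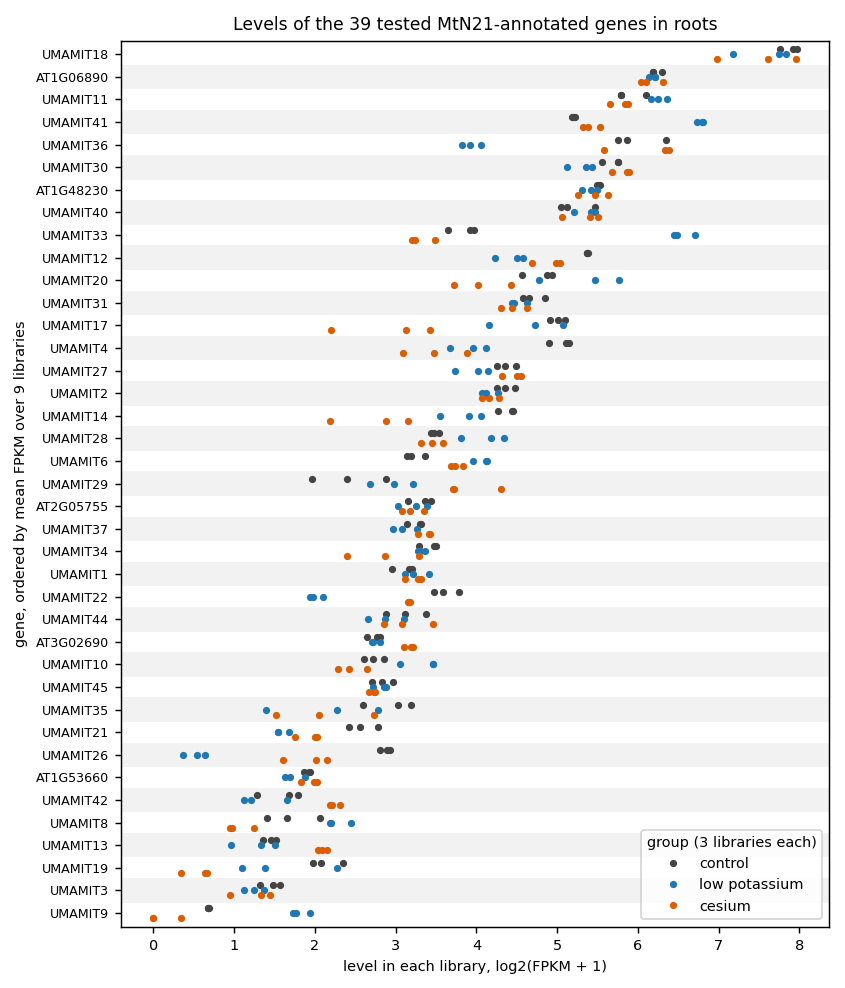
Level of each of the 39 tested members in each library, on a log2(FPKM + 1) axis, with members ordered by their mean over the 9 libraries and 1 point per library coloured by group. UMAMIT18 leads in every group, whereas the low potassium libraries of UMAMIT33, UMAMIT36 and UMAMIT26 lie far from those of the other groups.

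The library-to-library plot of levels shows the tested members spread over a wide range rather than sharing one level. The third libraries of both treatments were also the lowest for xylem markers. The summed level of 7 xylem markers was 58.6 FPKM in the third low potassium library and 57.3 FPKM in the third cesium library, against 118.8 to 157.0 FPKM in the other libraries of these treatments and 108.8 to 150.4 FPKM in control. UMAMIT18 and UMAMIT35 were the lowest of each treatment in the same libraries. So were UMAMIT10, UMAMIT12, UMAMIT20, UMAMIT21 and UMAMIT33, and WAT1 outside the rule. The 7 phloem markers also summed lowest there, at 110.3 FPKM in low potassium, against 147.3 and 175.6 FPKM in libraries 1 and 2. In cesium they summed to 140.6 FPKM, against 220.7 and 186.8 FPKM. The root identity sum was lowest there in low potassium (220.8 FPKM) but highest in cesium (300.5 FPKM). The sum of other amino acid transporters was highest there in both. The part of tissue content, or of the library itself, in the levels of the UMAMIT genes named here was not tested.

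Low potassium split the family evenly. Of the 39 tested members 8 rose and 8 fell against control, 41.0% in all, where 37.6% of all tested genes passed in that comparison, 18.8% upward and 18.8% downward. The median log2 change of the members was -0.18, beside 0.0018 over all genes. The share that passed was therefore close to that of all genes. The size of some changes was large, and 7 members passed with a log2 change of at least 1 in size, which 6.12% of all tested genes did. Without the first or the second low potassium library 5 members rose. The 8 include UMAMIT9, which entered the test only through its low potassium libraries. Those that rose were UMAMIT33, UMAMIT41, UMAMIT9, UMAMIT6, UMAMIT28, UMAMIT10, UMAMIT8 and UMAMIT11. Those that fell were UMAMIT26, UMAMIT36, UMAMIT22, UMAMIT4, UMAMIT21, UMAMIT12, UMAMIT27 and UMAMIT30.

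UMAMIT33 was the member that rose most. Its values were 14.2, 14.7 and 11.6 FPKM in control, 88.8, 103.1 and 86.6 FPKM in low potassium, and 10.3, 8.41 and 8.22 FPKM in cesium. Every low potassium library was far above every other library, and the cesium libraries were below control. The mean in low potassium was 6.89-fold that in control, a log2 change of 2.70 ± 0.12 (limma, adjusted p = 1.99e-06). In cesium UMAMIT33 fell by 0.54 on the log2 scale (limma, adjusted p = 0.00967), although the authors' deposited table gives a q of 0.145 there. The deposited region of UMAMIT33 also covers the neighbouring tetraspanin gene TET7 (AT4G28050). TET7 had 32.8 ± 3.26 FPKM in control, 24.8 ± 3.08 FPKM in low potassium and 24.6 ± 4.39 FPKM in cesium (SD, 3 libraries each), so its level was not higher in low potassium.

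UMAMIT41 rose next to it in certainty. Control held 35.3, 36.3 and 35.7 FPKM, low potassium 110.1, 105.6 and 110.8 FPKM, and cesium 45.2, 40.7 and 39.01 FPKM. The low potassium values were 3.04-fold the control mean, a log2 change of 1.58 ± 0.07 (limma, adjusted p = 2.53e-06). The cesium libraries were also above every control library, but the log2 change of 0.21 ± 0.07 did not pass (adjusted p = 0.0647). UMAMIT41 and UMAMIT33 together changed the makeup of the family, with 12.9% and 11.0% of the sum over the 44 members named UMAMIT in low potassium.

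UMAMIT6 had 9.32, 7.83 and 8.10 FPKM in control, 16.4, 14.5 and 16.6 FPKM in low potassium, and 13.2, 11.8 and 12.3 FPKM in cesium. Control libraries were lowest and low potassium libraries highest, with no overlap among the 3 groups. It rose in low potassium by a log2 change of 0.84 ± 0.09 (limma, adjusted p = 0.000174) and in cesium by 0.52 ± 0.09 (adjusted p = 0.00363). UMAMIT6 was the one tested member that rose in both treatments. UMAMIT9 was near the limit of detection, with 0.60, 0.59 and 0.61 FPKM in control, 2.32, 2.85 and 2.39 FPKM in low potassium, and 0, 0 and 0.27 FPKM in cesium. UMAMIT9 reached the filter on low values only through its low potassium libraries, so that its higher level there follows in part from being tested at all, and its log2 change of 1.13 is given as a description. UMAMIT9 fell by 0.57 on the log2 scale in cesium (adjusted p = 0.0227), a call lost without any 1 of the control libraries or without cesium library 1 or 2 (adjusted p up to 0.0648).

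UMAMIT8 and UMAMIT10 had group means in the order of UMAMIT9, highest in low potassium and lowest in cesium, also at low levels. UMAMIT8 had 1.66, 2.14 and 3.17 FPKM in control, 3.54, 4.45 and 3.58 FPKM in low potassium, and 1.37, 0.93 and 0.96 FPKM in cesium. UMAMIT10 had 5.60, 5.08 and 6.23 FPKM in control, 10.0, 10.0 and 7.28 FPKM in low potassium, and 5.24, 4.34 and 3.87 FPKM in cesium. For both genes the low potassium libraries were the highest. The cesium and control libraries of UMAMIT10 overlapped, and its change in cesium did not pass (limma, adjusted p = 0.179). UMAMIT8 rose by a log2 change of 0.57 ± 0.18 in low potassium (limma, adjusted p = 0.0302) and fell by 0.65 in cesium (adjusted p = 0.0245), and UMAMIT10 rose by 0.60 ± 0.14 in low potassium (adjusted p = 0.00923). Both calls of UMAMIT8 were fragile. The one in low potassium was lost without control library 1 or 2 or any 1 low potassium library (adjusted p up to 0.107), and the one in cesium without control library 2 or 3 or cesium library 2 (up to 0.0807). UMAMIT28, an amino acid exporter known from seeds, rose by 0.63 ± 0.13 in low potassium (adjusted p = 0.00541), from 10.2 ± 0.40 to 16.5 ± 3.21 FPKM (SD, 3 libraries each).

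UMAMIT26 fell furthest in low potassium. It was measured at 6.44, 6.63 and 5.99 FPKM in control, 0.45, 0.29 and 0.55 FPKM in low potassium, and 2.05, 3.44 and 3.02 FPKM in cesium. The 3 groups did not overlap, with cesium between the others. The control mean was 14.7-fold the low potassium mean, and UMAMIT26 fell by 2.36 on the log2 scale (limma, adjusted p = 9.97e-06). In cesium it fell by 0.96 (adjusted p = 0.00201). UMAMIT26 lies beside UMAMIT27 on chromosome 1 with 94.1% identity of the coding sequence, and 9.06% of its 50-base stretches recur in UMAMIT27 or UMAMIT28, so reads could be split among these genes. The levels of UMAMIT27 were 19.6 ± 1.75 FPKM in control and 14.8 ± 2.23 FPKM in low potassium (SD, 3 libraries each). UMAMIT27 fell there by 0.40 on the log2 scale (limma, adjusted p = 0.0266), a call lost without control library 1 or 2 or low potassium library 2 or 3 (adjusted p up to 0.0951).

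UMAMIT22 had 11.0, 12.7 and 10.1 FPKM in control, 3.28, 2.94 and 2.85 FPKM in low potassium, and 7.87, 8.00 and 8.02 FPKM in cesium. The order of the groups was that of UMAMIT26, again with no overlap. It fell by 1.61 on the log2 scale in low potassium (limma, adjusted p = 6.91e-06) and by 0.45 in cesium (adjusted p = 0.00940). UMAMIT12 had 40.4, 40.7 and 40.4 FPKM in control, 22.8, 21.7 and 17.8 FPKM in low potassium, and 31.8, 30.7 and 24.8 FPKM in cesium. It fell by 0.94 in low potassium (adjusted p = 0.000305) and by 0.47 in cesium (adjusted p = 0.0155, and 0.0512 without the second control library).

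UMAMIT36 (RTP1, RESISTANCE TO PHYTOPHTHORA 1), whose loss makes plants more resistant to an oomycete pathogen, differed between the treatments. It had 57.5, 53.0 and 80.2 FPKM in control, 15.6, 13.1 and 14.1 FPKM in low potassium, and 79.8, 82.3 and 47.0 FPKM in cesium. Low potassium libraries were far below all others, and control and cesium overlapped. UMAMIT36 fell by 2.06 on the log2 scale in low potassium (limma, adjusted p = 0.000131). In cesium its log2 change was 0.11 ± 0.22 and did not pass, with a 95% interval from -0.37 to 0.59. UMAMIT36 held 7.75% of the sum over the 44 members named UMAMIT in control and 10.0% in cesium.

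**Figure D2:**
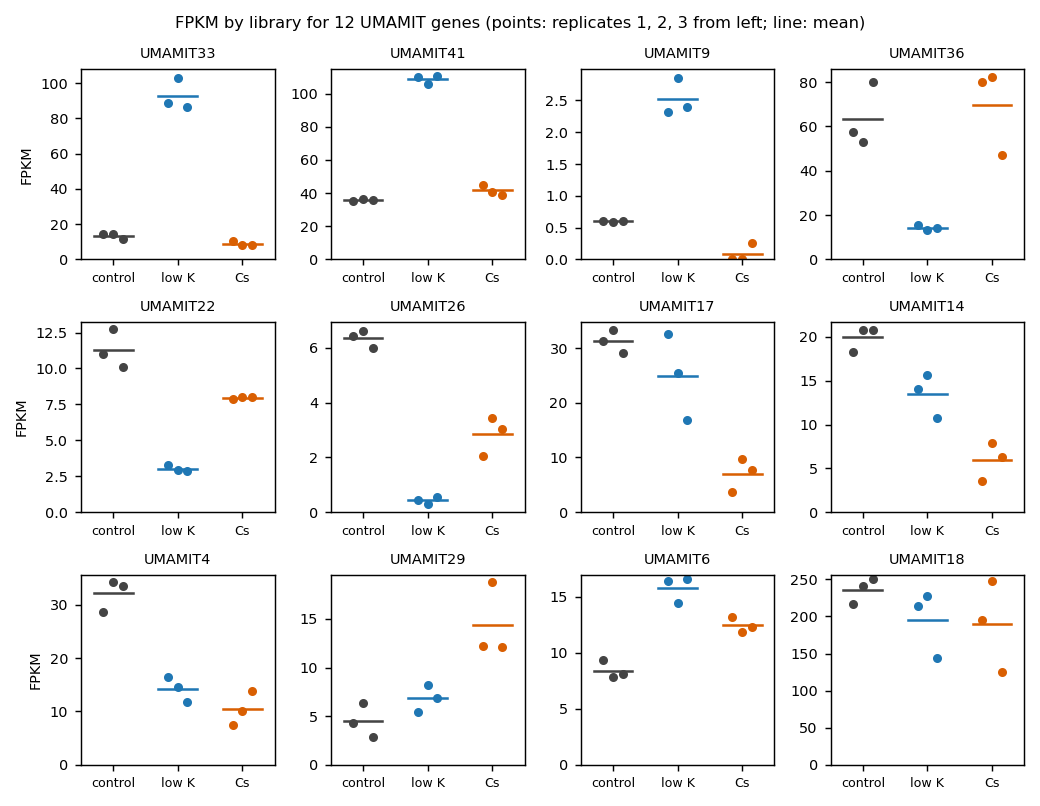
FPKM of 12 UMAMIT genes in each library, with points for replicates 1, 2 and 3 from left to right in each group, a line at the group mean, and axes that start at 0 and differ between panels. UMAMIT33 and UMAMIT41 are high in low potassium, UMAMIT36, UMAMIT22 and UMAMIT26 are lowest there, and UMAMIT17 and UMAMIT14 are lowest in cesium.

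In cesium more members fell than rose. Of the 39 tested members 5 rose and 11 fell against control, 41.0% in all, beside 23.5% of all tested genes, of which 10.8% passed upward and 12.7% downward. The median log2 change was -0.12 for the members and 0.020 for all genes. UMAMIT4, UMAMIT14, UMAMIT17, UMAMIT19 and UMAMIT29 passed with a log2 change of at least 1 in size, 5 members in all, and 4.78% of all tested genes did so. Those that fell were UMAMIT17, UMAMIT14, UMAMIT19, UMAMIT4, UMAMIT26, UMAMIT21, UMAMIT8, UMAMIT9, UMAMIT33, UMAMIT12 and UMAMIT22. Those that rose were UMAMIT29, UMAMIT42, UMAMIT13, UMAMIT6 and AT3G02690, the last with an authors' deposited table q of 0.304. The deposited region of AT3G02690 also covers AT3G02700, at 34.9 ± 1.11 FPKM in control and 38.9 ± 5.70 FPKM in cesium (SD, 3 libraries each).

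UMAMIT14, which exports amino acids and takes part in phloem unloading in roots, was among the members that fell most in cesium. It had 18.3, 20.7 and 20.8 FPKM in control, 14.1, 15.6 and 10.7 FPKM in low potassium, and 3.57, 7.92 and 6.33 FPKM in cesium. All cesium libraries were below all low potassium libraries, which in turn were below all control libraries. The control mean was 3.36-fold the cesium mean, and UMAMIT14 fell by 1.65 on the log2 scale (limma, adjusted p = 0.000794). The change of -0.55 ± 0.22 in low potassium did not pass (adjusted p = 0.0775), but passed when the fit was restricted to the 6 libraries compared (adjusted p = 0.0109).

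UMAMIT17 fell most in cesium on the log2(FPKM + 1) scale. Its values were 31.4, 33.3 and 29.1 FPKM in control, 32.5, 25.5 and 16.9 FPKM in low potassium, and 3.60, 9.77 and 7.76 FPKM in cesium. Low potassium and control overlapped and cesium stood below both. In cesium it fell by 2.09 on the log2 scale (limma, adjusted p = 0.00117), and the change in low potassium of -0.36 ± 0.30 did not pass. UMAMIT19 had 3.22, 2.92 and 4.07 FPKM in control, 1.14, 3.85 and 1.61 FPKM in low potassium, and 0.27, 0.59 and 0.55 FPKM in cesium. It fell by 1.58 on the log2 scale in cesium (adjusted p = 0.00292), where the authors' deposited table gives a q of 0.371. Without the added 1, the ratio of the control mean to the cesium mean was larger for UMAMIT19, at 7.23, than for UMAMIT17, at 4.44. The deposited region of UMAMIT19 also covers LYM1, a receptor for bacterial peptidoglycan. LYM1 had 45.8 ± 3.45 FPKM in control, 33.0 ± 4.37 FPKM in low potassium and 52.6 ± 4.36 FPKM in cesium (SD, 3 libraries each). The effect of the shared region on the values of UMAMIT19 was not tested.

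UMAMIT4 and UMAMIT21 were lower in both treatments. UMAMIT4 had 28.7, 34.3 and 33.5 FPKM in control, 16.4, 14.5 and 11.7 FPKM in low potassium, and 7.51, 10.1 and 13.8 FPKM in cesium. Both treatments lay below control and overlapped each other. UMAMIT4 fell by 1.57 in cesium (limma, adjusted p = 0.000449) and by 1.13 in low potassium (adjusted p = 0.00169) on the log2 scale. UMAMIT21 had 4.37, 4.91 and 5.87 FPKM in control, 2.21, 1.92 and 1.91 FPKM in low potassium, and 3.06, 3.00 and 2.38 FPKM in cesium. UMAMIT21 fell by 0.66 in cesium (adjusted p = 0.00526) and by 1.00 in low potassium (adjusted p = 0.000392).

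UMAMIT29, UMAMIT30 and UMAMIT31 are known as glucosinolate exporters and lie side by side on chromosome 4. UMAMIT29 had 4.26, 6.35 and 2.89 FPKM in control, 5.43, 8.25 and 6.87 FPKM in low potassium, and 12.3, 18.8 and 12.1 FPKM in cesium. Its cesium libraries were above all others, while control and low potassium overlapped. The cesium mean was 3.20-fold the control mean, a log2 change of 1.51 ± 0.24 (limma, adjusted p = 0.00224). UMAMIT30, at 50.6 ± 4.02 FPKM in control, did not pass in cesium (55.4 ± 4.43 FPKM) and fell in low potassium to 38.7 ± 4.37 FPKM (SD, 3 libraries each, limma, adjusted p = 0.0183). That call was lost without control library 1 or 2 or low potassium library 3 (adjusted p up to 0.0659). UMAMIT31 passed in neither, with 25.0 ± 2.51 FPKM in control, 21.8 ± 1.72 FPKM in low potassium and 21.0 ± 2.49 FPKM in cesium.

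**Figure D3:**
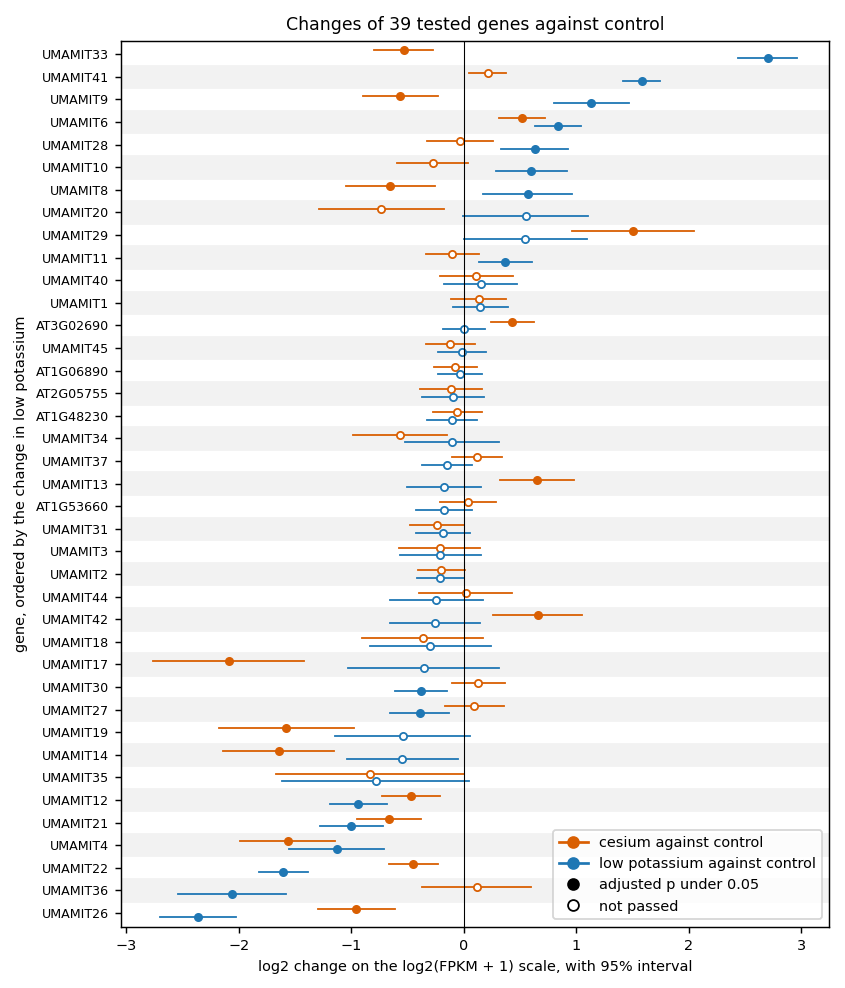
Change of each of the 39 tested members against control, on the log2(FPKM + 1) scale with 95% intervals, for cesium and for low potassium, ordered by the change in low potassium. Filled points have an adjusted p under 0.05, and UMAMIT33 at 2.70 and UMAMIT26 at -2.36 mark the ends in low potassium.

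The plot of changes against control shows both treatments beside each other, and both use the same control libraries. UMAMIT4, UMAMIT12, UMAMIT21, UMAMIT22 and UMAMIT26 fell in both treatments, and UMAMIT6 rose in both. UMAMIT8 and UMAMIT33 rose in low potassium and fell in cesium. UMAMIT9 had the same directions, but it entered the test only through its low potassium libraries. Both calls of UMAMIT8 and the fall of UMAMIT9 in cesium were lost without some single libraries. For the fall of UMAMIT33 in cesium the authors' deposited q was 0.145.

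Cesium and low potassium were also compared with each other. Of the 39 tested members 10 were higher and 12 were lower in cesium than in low potassium, 56.4% in all, beside 34.2% of all tested genes, of which 16.7% were higher and 17.4% lower. The median log2 difference of the members was -0.041, beside -0.0024 over all genes. UMAMIT33 was lower in cesium by a mean ratio of 10.4 (log2 difference -3.24 ± 0.12, limma, adjusted p = 1e-06). UMAMIT36 was 4.89-fold higher in cesium (log2 difference 2.17 ± 0.22, adjusted p = 0.000112). In all, 11 members passed with a log2 difference of at least 1 in size, which 5.24% of all tested genes did. These 11 and the 12 that were lower include UMAMIT9, which entered the test only through its low potassium libraries.

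The other members with the smallest adjusted p in that comparison were UMAMIT41, UMAMIT22, UMAMIT9, UMAMIT26, UMAMIT8 and UMAMIT10. UMAMIT22 and UMAMIT26 were higher in cesium, by log2 differences of 1.16 ± 0.10 and 1.41 ± 0.15. UMAMIT41, UMAMIT8 and UMAMIT10 were lower in cesium, by log2 differences of -1.37 ± 0.07, -1.22 ± 0.18 and -0.88 ± 0.14. The log2 difference of UMAMIT9, -1.70, is a description, since low potassium brought that gene past the filter. UMAMIT14 and UMAMIT17 were lower in cesium as well, at -1.10 ± 0.22 (limma, adjusted p = 0.00461) and -1.73 ± 0.30 (adjusted p = 0.00217). UMAMIT20, the neighbour of UMAMIT17, passed here at -1.28 ± 0.25 (adjusted p = 0.00386), with 43.4, 53.6 and 26.4 FPKM in low potassium and 20.6, 15.2 and 12.2 FPKM in cesium. Against control its limma calls did not pass, at adjusted p = 0.0586 in cesium and 0.110 in low potassium, but the authors' deposited table gives a q of 0.000491 in both, and the fit on the 6 libraries compared gave 0.0315 in cesium. Over the 3 comparisons, which share libraries, 24 members or 61.5% passed at least once, UMAMIT9 among them, beside 55.0% of all tested genes. The other 15 passed in none, UMAMIT18 and AT1G06890 among them. For UMAMIT35, also among the 15, limma gave adjusted p = 0.133 in cesium and 0.124 in low potassium against control. The authors' deposited table gives a q of 0.000491 in both. For UMAMIT34 in cesium limma gave adjusted p = 0.0520 and the deposited q was 0.0232.

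Neighbouring members differed in some groups and moved alike in others. With gaps of up to 20 kb between genes, 18 members fell into 6 groups of neighbours. On chromosome 1 UMAMIT26 and UMAMIT27 both fell in low potassium, the latter with the fragile call given above. Both were higher in cesium than in low potassium. On chromosome 3 UMAMIT41 opens a row of 6 genes, at 10442608 to 10445431 on TAIR10, and is 60.0% to 62.2% identical in coding sequence to the others. UMAMIT43-psi, UMAMIT46 and UMAMIT47 in that row were under the filter, and UMAMIT45 and UMAMIT44 passed in no comparison, with means in low potassium of 6.05 ± 0.43 and 6.41 ± 1.14 FPKM (SD, 3 libraries each). On chromosome 2 the pair UMAMIT13 and UMAMIT12, 83.8% identical, went opposite ways in cesium, UMAMIT13 with a rise of 0.65 ± 0.15 and UMAMIT12 with the fall given above. UMAMIT17 and UMAMIT20 on chromosome 4, 59.2% identical, both had their lowest libraries in cesium. On chromosome 5 UMAMIT42 rose in cesium from 2.03 ± 0.54 to 3.72 ± 0.22 FPKM (SD, 3 libraries each, limma, adjusted p = 0.0253). That call was lost without control library 2 or cesium library 1 or 2 (adjusted p up to 0.0916). Its neighbours UMAMIT37 and UMAMIT40 passed in no comparison. Near-identical stretches were few, and 44 of the 49 members shared no run of 50 bases with another member.

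**Figure D4:**
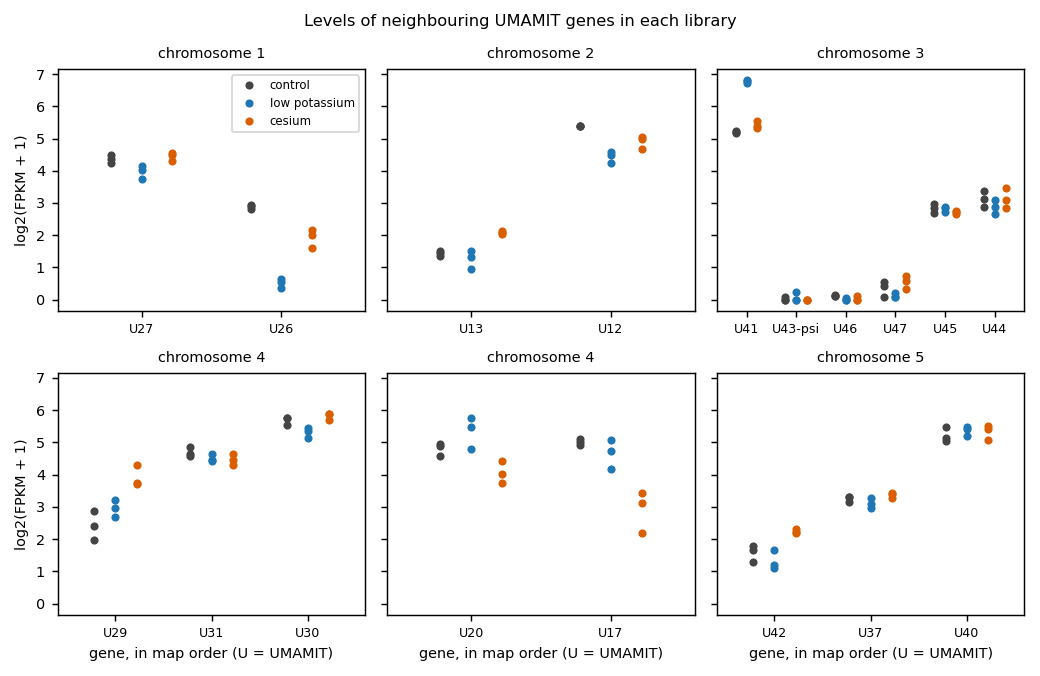
Level of each member in 6 groups of neighbouring UMAMIT genes, with genes in map order on the horizontal axis, log2(FPKM + 1) on the vertical axis and 1 point per library coloured by group. UMAMIT41 stands above its 5 neighbours in every group and is highest in low potassium. UMAMIT29 rises in cesium beside UMAMIT31 and UMAMIT30, and UMAMIT26 is low in low potassium beside UMAMIT27.

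WAT1, the vacuolar auxin exporter of the same family, is given for reference because its description kept it outside the rule. It had 348.4, 309.4 and 359.3 FPKM in control, 341.1, 304.4 and 242.2 FPKM in low potassium, and 475.2, 432.2 and 282.5 FPKM in cesium. The groups overlapped and no change passed, with log2 changes of -0.21 ± 0.19 in low potassium and 0.19 ± 0.19 in cesium.

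Other amino acid transporters were counted from a list of 33 genes, of which 27 were tested. In low potassium 7 rose and 5 fell, in cesium 5 rose and 2 fell, and 7 were higher and 7 lower in cesium than in low potassium. These are 44.4%, 25.9% and 51.9% of the 27, beside 37.6%, 23.5% and 34.2% of all tested genes. Their median log2 changes were 0.043, 0.012 and -0.13 in that order. In low potassium 3 fell without control library 1 or 3 and 2 fell without the third low potassium library. In cesium 3 rose without the first or second library of control or of cesium, while 1 fell without the third control library and 4 fell without the third cesium library. AAP3, an amino acid permease of the root vasculature, went from 9.97 ± 1.66 FPKM in control to 34.5 ± 6.88 FPKM in low potassium and 66.3 ± 22.9 FPKM in cesium (SD, 3 libraries each). It rose by log2 changes of 1.69 ± 0.22 (limma, adjusted p = 0.000516) and 2.58 ± 0.22 (adjusted p = 8.96e-05). LHT1, the carrier that takes up neutral and acidic amino acids at the root surface, fell from 77.9 ± 11.2 to 29.6 ± 3.20 FPKM in low potassium (adjusted p = 0.000225) and did not pass in cesium, at 91.2 ± 18.9 FPKM.

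CAT2, a tonoplast member of the cationic amino acid transporter family, rose in low potassium by 1.10 ± 0.08 on the log2 scale (limma, adjusted p = 2.60e-05). GDU1 of the glutamine dumper proteins, which promote amino acid export, rose there by 0.85 ± 0.11 (adjusted p = 0.000515). GDU6 rose in both treatments, by 1.23 ± 0.17 in low potassium and 0.99 ± 0.17 in cesium. AAP7 rose in cesium by 0.86 ± 0.12 and GDU3 fell there by 0.54. GDU5 was higher in cesium than in low potassium by a log2 difference of 2.14 ± 0.24 (adjusted p = 0.000199).

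The labelled tissue was checked with marker lists. All 8 root identity markers were present, at summed levels of 442.4 to 523.6 FPKM in control, 220.8 to 280.7 FPKM in low potassium and 238.4 to 300.5 FPKM in cesium. In a list of 12 shoot genes without photosynthesis genes, 2 averaged 1 FPKM or more and 2 were at 0 in every library. Their summed level was 31.8 to 40.5 FPKM in control, 15.03 to 20.8 FPKM in low potassium and 56.2 to 74.0 FPKM in cesium, mostly of the epidermal gene PDF1. The 7 phloem markers summed to 137.9 to 152.9 FPKM in control, 110.3 to 175.6 FPKM in low potassium and 140.6 to 220.7 FPKM in cesium. The root identity sum was carried by the endodermal gene CASP1, whose mean was 342.6 FPKM in control, 163.3 FPKM in low potassium and 156.3 FPKM in cesium. Of the 8 root identity markers 3 fell in low potassium, and in cesium 1 fell and 2 rose. The part of these markers in the members' values was not tested.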

How the data were processed

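Total RNA from Arabidopsis Col-0 roots was sequenced in 9 strand-specific libraries, per the labels' protocols, and the labels gave 3 groups of 3. Cufflinks 2.2.1, STAR 2.5.0c, Bowtie2 2.3.4.1 and the TAIR10 build appear in the submitters' processing notes without their roles. One FPKM value per gene and library was deposited by the authors. The sources used here do not state the scaling across libraries. Against control, the authors' deposited table holds a log2 fold change, p-value and q-value per gene, from an unnamed test. Summed FPKM ran from 714170 to 844153 per library.

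Of the 37547 genes, 5 were dropped because 6 of their values did not have the status OK. The 19536 genes averaging 1 FPKM or more across all 9 libraries were tested as log2(FPKM + 1) by limma 3.58.1 (in R 4.3.3) using an intensity trend, in a one-way model of all 9 libraries, adjusted by Benjamini-Hochberg within each comparison at 0.05. Count models were not applied, since FPKM are not counts. The steps were tested on simulated data. Fold ratios are ratios of mean FPKM. Tables were handled with Python 3.11.15 and pandas 2.3.3, coding sequences were aligned with Biopython 1.88, and names and sequences came from RefSeq TAIR10.1. The deposited regions of 41 members equal the RefSeq gene, and 8 differ.

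The members and gene lists were chosen with earlier results of these data known. Members given library by library were the 8 with the smallest adjusted p in each comparison, the 4 with the highest mean, and UMAMIT14, UMAMIT18, UMAMIT36 and WAT1 for their known roles. Up to 4 other transporters per comparison were named by smallest adjusted p. UMAMIT20 and the marker genes were named in addition, after their values were seen. Alternatives were leaving out each library, the authors' q, a required log2 change of 1 or more, limma with no trend, the replicate number as a block, fitting only the 6 libraries compared, quantile or median-ratio scaling, no filter or one of 5 FPKM, and pseudocounts of 0.5 and 0.1.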

Additional observations from a re-analysis of the deposited data

How the results depend on the processing

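Of 54 member results that passed, 23 had a log2 change of at least 1 in size. Leaving that rule aside, 41 kept the call in every alternative in which they were tested and 13 lost it at least once, and 17 of the 54 were not tested with the filter of 5 FPKM. Of 63 that did not pass, 14 passed in at least 1 alternative, and no change that passed in either fit reversed. Requiring a log2 change of at least 1 left, of the tested members, 1 that rose and 4 that fell in cesium, 3 and 4 in low potassium, and 3 higher in cesium than in low potassium. With a filter of 5 FPKM, which tests fewer genes, 3 rose and 6 fell in cesium. Of all 15013 genes tested with that filter, 1575 rose and 2000 fell in cesium. Leaving out each library in turn gave 4 to 6 that rose and 8 to 13 that fell in cesium, 5 to 8 and 6 to 9 in low potassium, and 9 to 11 higher and 10 to 14 lower in cesium than in low potassium. The 5 members that rose in low potassium were counted without the first and again without the second low potassium library. The same fits tested 19504 to 19562 genes. Over all of these genes, 1272 to 2322 rose and 1590 to 2508 fell in cesium. In low potassium 2676 to 4339 rose and 2663 to 4349 fell. Between the treatments, 2390 to 3236 were higher and 2451 to 3378 lower in cesium.

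Among the other amino acid transporters, a log2 change of at least 1 left 1 that rose and 0 that fell in cesium, 4 and 2 in low potassium, and 4 higher and 2 lower in cesium than in low potassium. The filter of 5 FPKM left 3 that rose in cesium and 3 that fell in low potassium, and the authors' deposited table of q left 1 and 3 that fell. Leaving out each library gave 3 to 5 that rose and 1 to 4 that fell in cesium, and 6 to 8 and 2 to 6 in low potassium. Requiring a larger change or a higher level leaves fewer genes by construction. The cause of the other shifts was not tested.

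Same-numbered libraries of different groups did not all deviate together (correlations from -0.12 to 0.282), so the numbers were not used as pairs. With the replicate block, 5 members rose and 12 fell in cesium, 9 and 8 in low potassium, and 10 were higher and 12 lower in cesium than in low potassium. Of all 19536 genes, 1858 rose and 2296 fell in cesium with the block, and 3362 and 3367 in low potassium. Between the treatments, 2964 were higher and 3131 lower in cesium. UMAMIT29 passed in low potassium (adjusted p = 0.0223), UMAMIT20 passed in both treatments (0.0134 in cesium and 0.0275 in low potassium), and UMAMIT8 did not pass in low potassium (0.0516). Depth known only in relative terms, and 3 libraries per group, limit what can be said of members under about 1 FPKM.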
